A study of Mus musculus with 2 samples.

Results

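Lymphatic endothelial cells line the vessels that return tissue fluid, lipid and immune cells to the blood. Their identity depends on the transcription factor PROX1 and on signalling of VEGF-C through the receptor FLT4 (VEGFR3). Initial lymphatic capillaries take up fluid and immune cells, carry LYVE1 and podoplanin and secrete the chemokine CCL21, which guides dendritic cells and T cells bearing CCR7. Collecting vessels carry valves and a muscle layer, and in arteries such as the aorta lymphatics run mainly in the adventitia.

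The barcodes described here came from single-cell RNA sequencing of the aorta of ApoE-/- mice, a strain that lacks apolipoprotein E and develops atherosclerosis. A barcode is the tag of 1 droplet, and a UMI is 1 counted RNA molecule. Members were chosen by measured values: at least 1500 UMIs and 700 genes, at most 20% mitochondrial UMIs, at least 2 of the 4 genes Prox1, Mmrn1, Reln and Flt4 detected, and at most 2 UMIs of the macrophage genes C1qa and C1qb. They numbered 78 of the 29190 barcodes that passed the same depth and mitochondrial limits. Comparison barcodes, called blood endothelial, had at least 3 of the 5 genes Pecam1, Cdh5, Cldn5, Egfl7 and Ptprb and no UMI of Prox1, Mmrn1 or Reln, and they numbered 3380.

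The labels give 2 samples, both aortic cells of 20-week ApoE-/- mice. The titles name HFD for one of them and MSC_ITGB3 for the other. By the design text the treated models were HFD-fed as well, so HFD feeding is shared by both. How many mice stand behind a sample, and what MSC_ITGB3 consists of, is not stated in the labels. Counts came as 2 libraries in a single matrix, marked by the endings of the barcodes, and no label ties a library to a sample. They are therefore called library 1 and library 2, their values are set side by side, and neither stands for a treatment. With 1 library for each sample there is no replicate, so no difference below carries a test, and intervals are 95% intervals of counting error only.

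Library 1 held 110257209 UMIs and library 2 held 124266676, and 11833 and 17357 barcodes passed the limits with a median of 3231 and 2438 UMIs. Members made up 44 of 11833 barcodes in library 1 (0.372%, exact binomial interval 0.270 to 0.499%) and 34 of 17357 in library 2 (0.196%, 0.136 to 0.274%). Of members and blood endothelial barcodes together, members made up 1.79% (1.30 to 2.39%) and 3.40% (2.37 to 4.72%), so the 2 shares differed in opposite directions. The limit on C1qa and C1qb had removed 1 barcode in library 1 and 0 in library 2. Between the libraries 84 barcodes that passed the limits shared a sequence, and 0 members did. Doublets were not removed.

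The label did not hold for all members. Of the 78, 60 had a UMI of Mmrn1 or Reln, 30 in each library, and 18 had Prox1 and Flt4 only, 14 in library 1 and 4 in library 2. The 60 made up 0.254% (0.171 to 0.362%) and 0.173% (0.117 to 0.247%) of the barcodes that passed the limits, with overlapping intervals. Those 18 were mostly deep barcodes, with a median of 34185 UMIs in library 1 and 13157 in library 2 and a lowest of 6896 and 1839, and they held 68.1% and 19.3% of all member UMIs. Among the 14 of library 1, Prox1 was counted as a single UMI in 11 and Flt4 as a single UMI in 9.

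Lyve1, the hyaluronan receptor used as a check because the rule did not use it, had 0 UMIs in these 18 barcodes in both libraries, and so did Nts. Ccl21a had 0 UMIs in the 14 of library 1 and 88.3 CPM (UMIs of a gene per 1000000 UMIs of the summed barcodes) in the 4 of library 2, where all 5 UMIs came from the 1 barcode of 1839 UMIs. That barcode had 1 UMI of Pdpn, 2 of Fgl2 and 1 of Maf and none of Selp, Vwf or the 5 pan-endothelial genes. Summed, the 18 carried blood vessel genes. Their Selp was 1098 CPM in library 1 and 247 CPM in library 2, against 501 and 307 CPM in blood endothelial barcodes. Bmp6 was 506 and 1501 CPM, against 577 and 505 CPM, and Gja5 was 212 and 230 CPM, against 274 and 282 CPM. The 18 are called Prox1/Flt4 members below, and the summed values gave no ground for the lymphatic name.

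The 60 Mmrn1/Reln members fitted the label better, though not all of them did. Lyve1, the 1 marker of the 5 that the rule left free, was found in 12 of 30 in library 1 and 15 of 30 in library 2. Of the 60, 12 had at most 1 of the 5 pan-endothelial genes. By the clustering described further on, 11 lay in a group led by fibroblast genes and 1 in a group led by arterial genes. All sums given for the Mmrn1/Reln members include these barcodes. All 4 rule genes together were found in 13 members of library 1 and 11 of library 2. This division was made after the values were seen. Counts below are for the Mmrn1/Reln members, with those for all 78 members beside them where the lists are described.

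**Figure D1:**
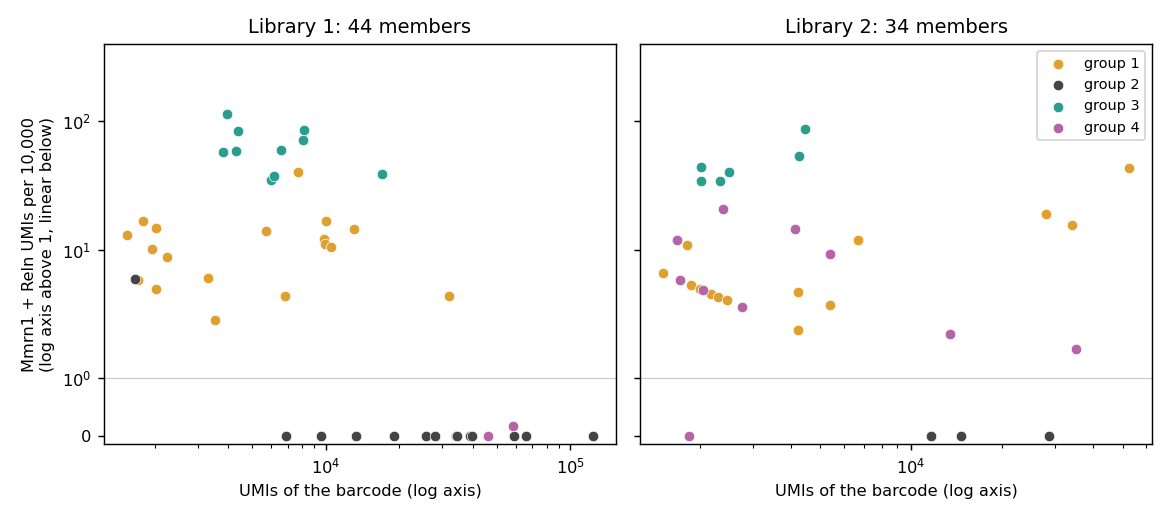
Each point is 1 member, placed by its UMIs (x, log axis) and by its Mmrn1 and Reln UMIs per 10,000 (y, logarithmic above 1 and linear below); the colours are the 4 groups found by clustering the members. The points at 0 are the 18 Prox1/Flt4 members, and most of them lie to the right among the deep barcodes, above all in library 1.

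The rule also left a margin at its threshold. Exactly 1 of the 4 rule genes was found in 425 barcodes of library 1 and 229 of library 2, and exactly 2 in 22 and 15. Ccl21a was 0.148 and 43.6 CPM in the barcodes with 1 rule gene, against 0 and 420 CPM in those with 2 and 17334 and 12623 CPM in those with all 4. Lyve1 was 3.70 and 9.29 CPM with 1 rule gene, 71.7 and 48.0 CPM with 2, and 2175 and 936 CPM with 4. The level of both genes thus lay mostly in the barcodes with more rule genes, and most barcodes just inside the threshold in library 1 were Prox1/Flt4 members.

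The rule genes are described here without a comparison, since they chose the members. Prox1, Mmrn1 and Reln also chose the blood endothelial barcodes, and Flt4 did not. Prox1 was 574 CPM (interval 484 to 675) in the Mmrn1/Reln members of library 1 and 708 CPM (605 to 823) in those of library 2, and Flt4 was 369 and 341 CPM. Mmrn1, which encodes the secreted glycoprotein multimerin 1, reached 1572 and 1403 CPM. Reln, which encodes the matrix glycoprotein reelin, reached 593 and 632 CPM. In the Prox1/Flt4 members Prox1 was 36.8 and 141 CPM and Flt4 was 35.0 and 70.6 CPM. Barcodes of 10 to 100 UMIs, taken as a measure of RNA outside cells, had 1.77 and 1.95 CPM of Prox1 and 4.42 and 2.60 CPM of Flt4.

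**Figure D2:**
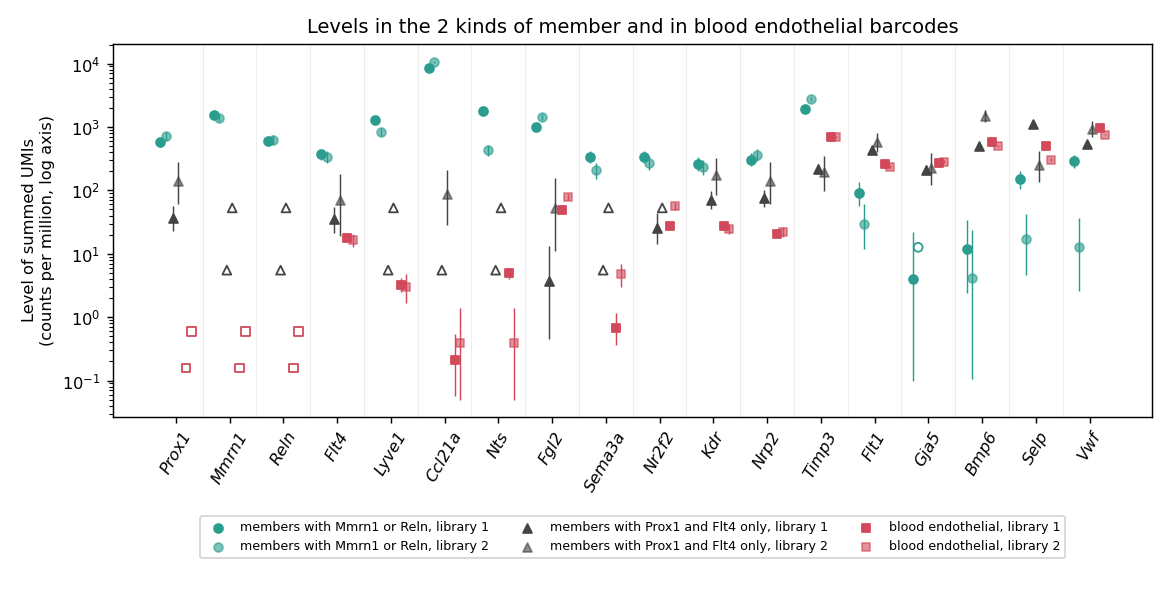
Level of 18 genes (CPM of summed UMIs, log axis) in the Mmrn1/Reln members (circles), the Prox1/Flt4 members (triangles) and blood endothelial barcodes (squares), with library 1 in the darker and library 2 in the lighter tone. Lines are 95% Poisson intervals and open symbols mark 0 UMIs, drawn at the level of 3 UMIs; for Gja5, Bmp6 and Vwf the circles lie below the triangles and the squares, and the Bmp6 triangle of library 2 lies above the squares.

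Across genes, each class was summed per library, and a gene was counted where the ratio to blood endothelial barcodes was at least 2-fold the same way in both libraries and its mean over the 4 sums was at least 50 CPM. The rule used this contrast, so the counts are a description and nothing is read from them. For all 78 members, 94 of 3753 genes were higher (2.50%) and 60 were lower (1.60%). For the Mmrn1/Reln members, 215 of 3768 genes were higher (5.71%) and 175 were lower (4.64%). Of the 94 higher genes 85 were among the 215, and of the 60 lower genes 45 were among the 175. The median log2 ratio over all genes counted was 0.07 and 0.02 in the 2 libraries for the Mmrn1/Reln members and 0.10 and 0.00 for all members. TMM scaling factors would move every ratio of these members by -0.19 in library 1 and -0.14 in library 2 (-0.13 and -0.12 for all members), and ratios are given without that shift. Of the 3768 genes, 404 reached the floor only through the members, with a blood endothelial mean under 50 CPM, and 133 of the 215 higher genes were among them. Such genes had to have a higher mean in the members. On the lists below they were 4 of the 4 higher guidance genes, 2 of 2 VEGF genes and 1 of 1 for arterial, venous and integrin genes. They were also 2 of 4 higher transcription factor genes, 2 of 3 for trafficking, 2 of 3 for lipid handling and 1 of 3 for valves.

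Most genes on the list of lymphatic identity were higher. Of 22 outside the 4 rule genes 18 were measured, and 17 of these were past 2-fold in the Mmrn1/Reln members and 0 were lower. Of the 18, 13 reached the floor only through the members, and of the other 5, 4 were higher. For all 78 members the count was 16 of 18. The list was put together from known lymphatic genes with earlier results of these data in view.

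Ccl21a encodes the chemokine CCL21 and lies on chromosome 4 (42772860 to 42773993, minus strand, GRCm38). It was counted at 8454 CPM (8100 to 8819) in the Mmrn1/Reln members of library 1 and at 10598 CPM (10188 to 11020) in those of library 2. Blood endothelial barcodes had 0.210 and 0.393 CPM, and barcodes of 10 to 100 UMIs had 18.5 and 27.9 CPM. Members held 98.2% of all Ccl21a UMIs of the filtered barcodes in library 1 (97.5 to 98.7%) and 93.2% in library 2. The matrix also lists genes named Ccl21b and Ccl21c and a second gene named Ccl21a, near-identical copies with 0 UMIs among the filtered barcodes, so the value may cover RNA of more than 1 copy.

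Lyve1 (chromosome 7, 110850607 to 110863239, minus strand, GRCm38) was 1297 CPM (1161 to 1445) and 826 CPM (714 to 950), against 3.26 and 2.95 CPM in blood endothelial barcodes. It was detected in 12 of 30 and 15 of 30 Mmrn1/Reln members. After every barcode was thinned to 1500 UMIs the shares were 40% (22.7 to 59.4%) and 30% (14.7 to 49.4%), against 0.663% and 0.311% of blood endothelial barcodes. Unlike Ccl21a, Lyve1 was not limited to members, which held 32.2% and 41.8% of its UMIs. Barcodes with more than 2 UMIs of C1qa and C1qb held 497 of 1024 Lyve1 UMIs in library 1 and 86 of 469 in library 2, and tissue macrophages are known to carry Lyve1.

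Podoplanin (Pdpn), the ligand of platelet CLEC-2, was 185 and 126 CPM in the Mmrn1/Reln members, against 18.8 and 32.0 CPM in blood endothelial barcodes. Members held only 0.884% and 0.647% of all Pdpn UMIs, so in this aorta most Pdpn RNA lay outside them. Nts encodes the peptide neurotensin and was 1769 CPM (1609 to 1940) in library 1 and 434 CPM (354 to 526) in library 2, against 4.89 and 0.393 CPM. It was detected in 22 of 30 and 11 of 30 members, and its level differed between the libraries by more than the counting intervals.

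Further genes of the list followed the same direction in both libraries. Fgl2, which encodes a fibrinogen-like secreted protein, was 1006 and 1450 CPM against 49.6 and 78.8 CPM. The transcription factor gene Maf was 515 and 405 CPM against 17.0 and 34.2 CPM. Lbp, whose product binds bacterial lipopolysaccharide, was 1014 and 299 CPM against 57.0 and 64.0 CPM. Klhl4 was 275 and 287 CPM against 27.7 and 20.8 CPM, and Fxyd6, a regulator of the sodium pump, was 452 and 708 CPM against 48.4 and 56.2 CPM.

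Among secreted semaphorins, 2 were counted as higher. Sema3a, a guidance ligand known for its part in lymphatic valve formation, was 334 and 206 CPM against 0.684 and 4.71 CPM. Sema3d was 448 and 261 CPM against 6.58 and 19.6 CPM. Sema3f was 149 and 67.4 CPM against 90.8 and 86.4 CPM, and Sema3g had 0 UMIs against 76.8 and 76.4 CPM. The co-receptor genes went opposite ways. Nrp2, the neuropilin that binds VEGF-C, was 307 CPM (242 to 383) and 367 CPM (294 to 452) against 20.5 and 22 CPM. Nrp1 was 27.5 and 4.21 CPM, the latter from a single UMI, against 228 and 171 CPM. In the Prox1/Flt4 members Nrp1 was 177 and 494 CPM. Of the 16 measured genes on the list of semaphorins, ephrins and guidance, 4 were higher and 4 were lower (3 and 0 of 18 for all members). The 4 higher genes reached the floor only through the members.

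On the list of VEGF ligands, receptors and cofactors, outside Flt4, 2 of 9 measured genes were higher and 4 were lower in the Mmrn1/Reln members. The 2 higher genes reached the floor only through the members. For all 78 members 2 of 10 were higher and 0 were lower, so the lower genes rest on leaving out the Prox1/Flt4 members. Kdr, the gene of VEGFR2, was 263 and 232 CPM against 27.6 and 24.9 CPM, about the same ratio in both libraries (9.53 and 9.29). Flt1, the gene of VEGFR1, was 90.4 and 29.5 CPM against 257 and 235 CPM. Clec14a, an endothelial lectin, was 15.7 and 8.43 CPM against 271 and 216 CPM. Cd93, another endothelial lectin, was 47.2 and 50.6 CPM against 404 and 306 CPM. In the Prox1/Flt4 members Flt1 was 427 and 583 CPM and Cd93 was 771 and 830 CPM, at or above the blood endothelial level.

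Among transcription factors, 4 of 19 measured genes were higher and 1 was lower (2 and 1 of 18 for all members). Nr2f2 (COUP-TFII), which works with PROX1 in lymphatic and venous fate, was 334 CPM (267 to 413) and 274 CPM (211 to 349) against 27.7 and 56.2 CPM. Nfatc1, known in lymphatic patterning and valves, was 259 and 493 CPM against 65.2 and 70.7 CPM. Klf4 was 829 and 641 CPM against 309 and 310 CPM, although barcodes of 10 to 100 UMIs also had 367 and 440 CPM. Hey2, a Notch target of arterial endothelium, was 7.86 and 16.9 CPM against 100 and 99.8 CPM.

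**Figure D3:**
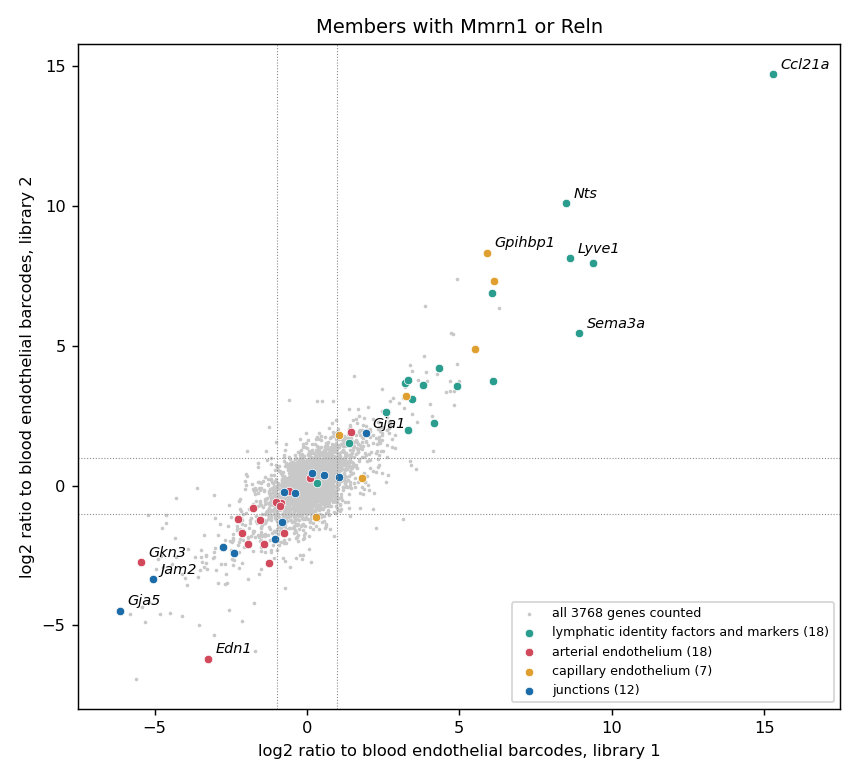
Log2 ratio of the Mmrn1/Reln members to blood endothelial barcodes in library 1 (x) and library 2 (y); each point is 1 of 3768 genes, coloured for 4 lists (number measured in brackets) with the rule genes left out, and dotted lines mark 2-fold. Lymphatic identity genes extend to the upper right, up to Ccl21a, and arterial and junction genes lie to the lower left.

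Genes of arterial endothelium were the list with the largest number of lower members. In the Mmrn1/Reln members 10 of 18 measured genes were lower and 1 was higher, with a median log2 ratio of -1.47 and -1.46. For all 78 members the counts were 1 lower and 0 higher of 19, so this result rests on leaving out the Prox1/Flt4 members. Gja5, the gene of the arterial gap junction protein connexin 40, had 1 UMI in library 1 and 0 in library 2 (3.93 and 0 CPM), against 274 and 282 CPM. Gkn3 was 3.93 and 0 CPM against 171 and 84.7 CPM. Edn1, the gene of the vasoconstrictor endothelin 1, was 51.1 and 4.21 CPM against 486 and 308 CPM. Clu was 621 and 1011 CPM against 2993 and 2298 CPM. Jag1, a Notch ligand, was 31.4 and 33.7 CPM against 121 and 144 CPM. The 1 higher gene was Unc5b, a netrin receptor, with 74.7 and 92.7 CPM against 27.5 and 24.6 CPM; thinned to 1500 UMIs per barcode, its log2 ratio in library 2 was -0.20.

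Venous genes did not move as a block. Of 9 measured, Nr2f2 was higher and Selp, Vwf and Vcam1 were lower. For all members Nr2f2 was higher and Vwf alone was lower, of 10. Vwf, which encodes von Willebrand factor, was 291 CPM (228 to 365) in library 1 and 12.6 CPM (2.61 to 36.9) in library 2, against 958 and 761 CPM. Selp, the leukocyte adhesion receptor P-selectin, was 149 and 16.9 CPM against 501 and 307 CPM. Within blood endothelial barcodes, 57 and 6 had at least 2 UMIs of Ackr1, a gene of venules. In those Nr2f2 was 42.6 and 24.9 CPM, Lyve1 and Ccl21a were at 0 UMIs and Selp was 1210 and 1097 CPM. Against these 63 barcodes the Mmrn1/Reln members thus kept their higher Nr2f2, Lyve1 and Ccl21a and their lower Selp. In library 2 the 6 barcodes held only 80244 UMIs, and their Nr2f2 value lay under the level of 3 UMIs.

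Genes of capillary endothelium included several that handle lipid. Of 13 listed 7 were measured, and 5 of these were higher and 0 were lower in the Mmrn1/Reln members. Of the 5, 4 reached the floor only through the members, and for all 78 members 1 of 4 measured was higher. Gpihbp1, which anchors lipoprotein lipase on capillaries, was 138 CPM (95.8 to 191) and 126 CPM (85.3 to 180) against 2.31 and 0.393 CPM. Rbp7, a retinol-binding protein gene, was 173 and 63.2 CPM against 2.47 and 0.393 CPM. Cd300lg was 122 and 75.8 CPM against 2.68 and 2.55 CPM. From the list of lipid handling, 3 of 10 measured genes were higher and 1 was lower (0 and 1 of 8 for all members). Lpl, the gene of lipoprotein lipase itself, was 122 and 80.1 CPM against 25.1 and 35.7 CPM, and Cavin2, a caveolar coat gene, was 1116 and 855 CPM against 404 and 308 CPM. Fabp5 was 43.2 and 29.5 CPM against 349 and 140 CPM, while Fabp4 was 1403 and 497 CPM against 403 and 408 CPM, with library 2 short of 2-fold.

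Several genes of cell contacts were lower. Of 12 measured junction genes outside the rule, 5 were lower (Jam2, Esam, Gja4, Gja5 and Cgnl1) and 1 was higher. For all 78 members 0 were lower and 1 was higher of 12, so the lower genes again rest on leaving out the Prox1/Flt4 members. Esam, an adhesion molecule of endothelial tight junctions, was 102 and 80.1 CPM against 540 and 425 CPM. Gja4, the gene of connexin 37, was 55.0 and 63.2 CPM against 370 and 289 CPM. Gja1, the gene of connexin 43, was 153 and 278 CPM against 40.5 and 75.8 CPM. Barcodes of 10 to 100 UMIs had 53.4 and 80.5 CPM of Gja1, close to the blood endothelial level. On the list of valve and collecting vessel genes, 3 of 16 were higher (Gja1, Sema3a and Foxp2) and 4 were lower (Gja4, Plxnd1, Bmp4 and Clec14a), against 3 higher and 0 lower of 15 for all members. Itga9, the integrin subunit of lymphatic valves, was 173 and 206 CPM against 132 and 128 CPM, short of 2-fold.

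**Figure D4:**
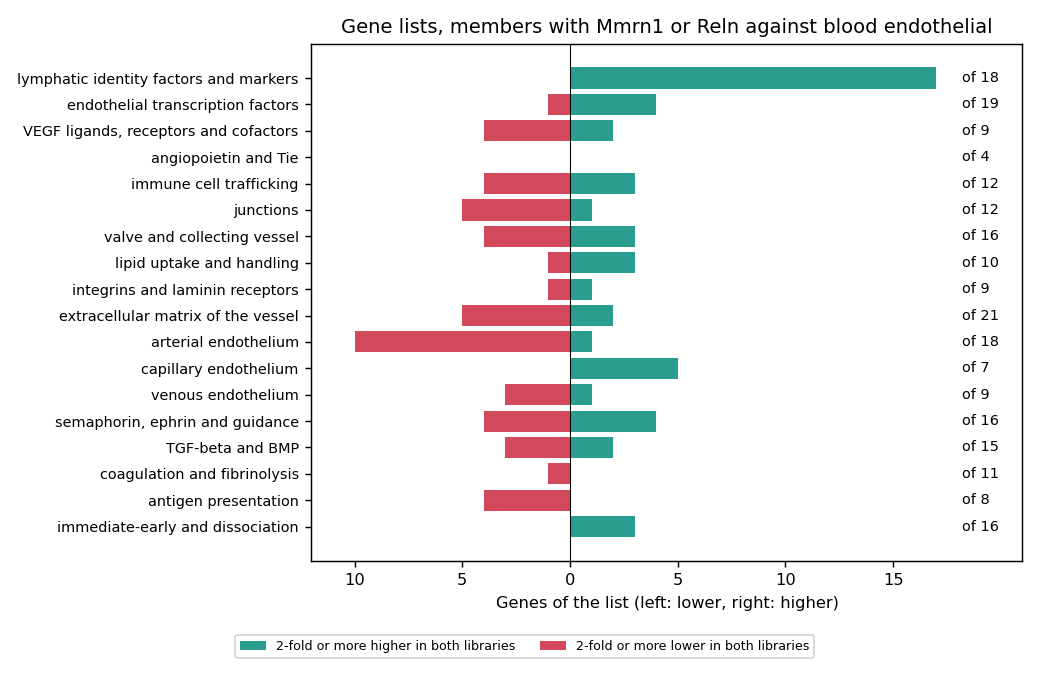
Number of genes of each list that were at least 2-fold higher (right) or lower (left) in the Mmrn1/Reln members than in blood endothelial barcodes in both libraries; the number measured stands at the right edge. Lymphatic identity (17 higher of 18) and arterial endothelium (10 lower of 18) had the largest counts in each direction; over all 3768 genes 5.71% were higher and 4.64% lower.

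Genes of immune cell trafficking outside Ccl21a were divided. Of 12 measured, 3 were higher and 4 were lower (3 and 1 of 14 for all members). Ackr3, which encodes a scavenger receptor of the chemokine CXCL12, was 723 and 291 CPM against 128 and 123 CPM. Cxcl12 itself was 114 and 80.1 CPM against 300 and 340 CPM. Spns2, the exporter of sphingosine 1-phosphate, was 102 and 80.1 CPM against 32.2 and 34.6 CPM, and its receptor gene S1pr1 had log2 ratios of 0.03 and -0.33. Vcam1 was 373 and 341 CPM against 966 and 685 CPM. Among 8 measured genes of antigen presentation 4 were lower (3 of 8 for all members), with Cd74 at 7.86 and 59.0 CPM against 214 and 171 CPM. Barcodes of 10 to 100 UMIs had 298 and 388 CPM of Cd74, and the 10 macrophage markers summed to 70.7 and 105 CPM in the Mmrn1/Reln members against 512 and 310 CPM in blood endothelial barcodes. C1qa and C1qb are among these markers, and the rule limited them in members but not in blood endothelial barcodes. The macrophage sums are therefore a description only. The part of macrophage RNA in the Cd74 values was not tested.

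In the matrix list, 2 of 21 measured genes were higher and 5 were lower (2 and 2 of 21 for all members). Lama4, a laminin chain of the endothelial basement membrane, was 299 and 236 CPM against 53.8 and 75.6 CPM. Timp3, an inhibitor of matrix metalloproteinases, was 1938 and 2790 CPM against 703 and 695 CPM, while barcodes of 10 to 100 UMIs had 984 and 746 CPM. Col4a1 was 189 and 198 CPM against 442 and 414 CPM. Hspg2, the gene of perlecan, was 224 and 164 CPM against 515 and 479 CPM. Eln, the gene of elastin, was 200 and 265 CPM against 3090 and 3088 CPM. Of the 15 measured genes of TGF-beta and BMP signalling, 2 were higher and 3 were lower (0 and 0 of 15 for all members). Bmp6, at 11.8 and 4.21 CPM against 577 and 505 CPM, had the lowest ratio of the genes counted when the smaller change of the 2 libraries is taken. Of the 9 measured integrin genes, Itga6, the laminin receptor subunit, was higher (126 and 96.9 CPM against 20.4 and 17.9 CPM) and Itga1, a collagen receptor subunit, was lower (62.9 and 33.7 CPM against 131 and 128 CPM). For all members the counts were 1 and 0 of 8.

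The other lists gave few genes past 2-fold in the Mmrn1/Reln members. None of 4 measured genes of the angiopoietin and Tie list was counted, and of 11 genes of coagulation and fibrinolysis only Vwf was, against 1 higher of 5 and Vwf of 10 for all members. Of 16 genes of the immediate-early and dissociation response, 3 were higher and 0 were lower, with a median log2 ratio of 0.84 and 0.92 (0 and 0 for all members). Jun was 2389 and 1951 CPM against 777 and 562 CPM. Hspa1b was 472 and 603 CPM against 122 and 200 CPM, and barcodes of 10 to 100 UMIs had 368 and 703 CPM. These genes are known to respond to tissue dissociation, and the part of handling in their values was not tested.

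When genes were ranked by the smaller of the 2 log2 ratios, several with no place on the lists stood near the top for the Mmrn1/Reln members. Ptn, the growth factor pleiotrophin, was 499 and 324 CPM against 6.37 and 3.93 CPM. Slc38a4, an amino acid transporter, was 35.4 and 198 CPM against 1.16 and 1.18 CPM. Adgrg3, an adhesion G protein-coupled receptor gene, was 138 and 156 CPM against 5.16 and 3.54 CPM, and Hmcn1 (hemicentin 1, a matrix protein) was 165 and 177 CPM against 6 and 4.12 CPM. Galnt18, a glycosyltransferase gene, was 440 and 362 CPM against 14.5 and 17.7 CPM. All of these had blood endothelial levels under 50 CPM and reached the floor only through the members. Their higher mean in the members was thus fixed by the floor. At the other end, the Wnt antagonist gene Sfrp1 was 15.7 and 29.5 CPM against 882 and 710 CPM. Ptprj, a receptor phosphatase gene, was 31.4 and 50.6 CPM against 1152 and 900 CPM, and Ly6c1 was 39.3 and 37.9 CPM against 876 and 896 CPM. Krt18, a keratin gene, had 0 UMIs in the Mmrn1/Reln members of both libraries, against 139 and 121 CPM, and 112 and 124 CPM in the Prox1/Flt4 members.

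Members differed among themselves. Clustering of the 78 without the rule genes gave 4 groups, of 32, 17, 16 and 13 barcodes. Because the groups were found on these cells, their leading genes are a description. The third group, of 16 barcodes (10 and 6 in the libraries), had Ccl21a in 16 of 16 and Lyve1 in 16 of 16. It carried the 4 markers fixed for lymphatic capillaries (Lyve1, Ccl21a, Pdpn and Reln) and is called lymphatic capillary-like. Ccl21a in single barcodes of library 1 ran from 4219 CPM through a median of 41444 CPM to 67410 CPM, and in those of library 2 from 15842 through 21192 to 24162 CPM. Lyve1 was 3987 and 3126 CPM and Pdpn was 584 and 227 CPM. Reln, which the clustering did not use, was 1928 and 1705 CPM. Leading genes included Piezo2, a mechanically gated channel, at 672 and 796 CPM, and Ackr2, a scavenger receptor of inflammatory chemokines, at 175 and 57 CPM. The 6 barcodes of library 2 had only 2020 to 4453 UMIs each, and their Ackr2 value lay under the level of 3 UMIs. Gpihbp1 was 438 and 625 CPM in the same group.

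The first group, of 32 barcodes (18 and 14), kept Prox1 at 683 and 884 CPM and Mmrn1 at 993 and 1662 CPM. All 32 were Mmrn1/Reln members. Nts was 2892 CPM (2602 to 3204) in library 1 and 677 CPM (551 to 822) in library 2, against 1256 and 114 CPM in the lymphatic capillary-like group. The value of 114 CPM came from 2 UMIs of 1 barcode. Lbp was 1732 and 382 CPM, Foxp2 was 667 and 583 CPM, and Fabp4 was 2796 and 764 CPM, where the lymphatic capillary-like group had 0 UMIs of Fabp4 in both libraries. Ccl21a had 0 UMIs in the 18 barcodes of library 1, with an interval up to 29.3 CPM. It was detected in 6 of 14 in library 2, at 12275 CPM over all 14. Reln was 143 and 717 CPM. In library 2 these sums came largely from the 3 deepest barcodes, which held 76.8% of the group's UMIs, 228 of 248 Mmrn1 UMIs, 106 of 107 Reln UMIs and 1781 of 1832 Ccl21a UMIs. The other 11 barcodes had 577 CPM of Mmrn1 (352 to 891), 1471 CPM of Ccl21a, 1471 CPM of Nts and 3115 CPM of Fabp4, against 1990, 15545, 436 and 52.4 CPM in the 3 deepest. The 3 deepest barcodes were thus nearer to the lymphatic capillary-like group in Ccl21a and Fabp4 than the rest of their group. Foxp2, a leading gene of the first group, lay mostly in these 3 as well. They held 82 of its 87 UMIs, at 716 CPM against 144 CPM in the other 11. This division was made after the values were seen. The 6 markers fixed for valve or collecting vessels had a median of 338 CPM over these barcodes and 490 CPM over the lymphatic capillary-like ones, so the group was given no subtype name.

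**Figure D5:**
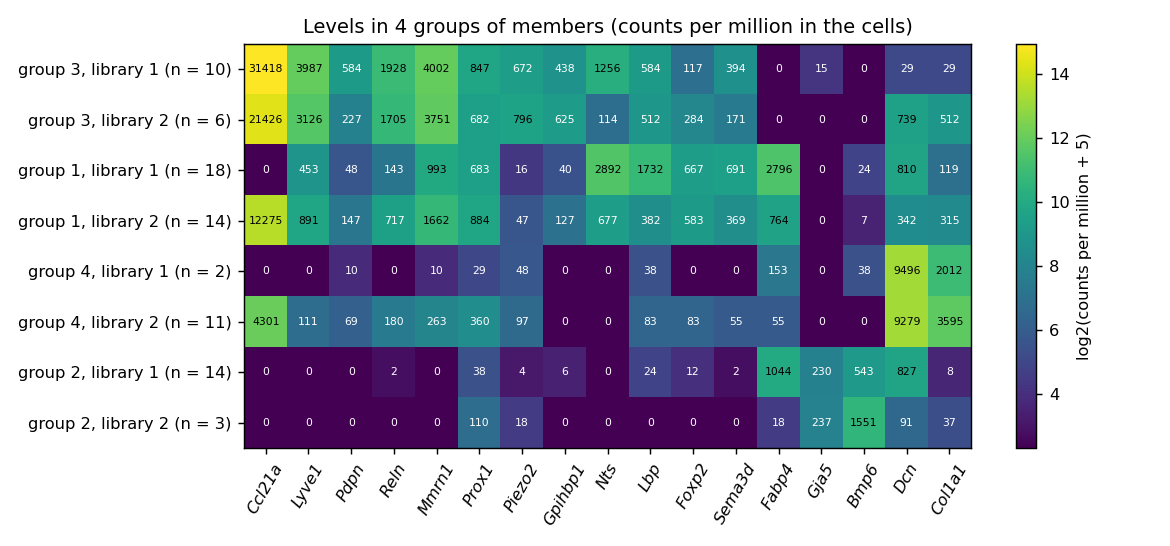
Level of 17 genes (columns, CPM printed in each cell, colour as log2 of CPM plus 5) in the 4 groups of members in each library, with the number of barcodes in brackets. Group 3 carries Ccl21a, Lyve1, Pdpn and Piezo2 together in both libraries, group 1 carries Nts, Lbp, Foxp2 and Fabp4, group 4 carries Dcn and Col1a1, and group 2 carries Gja5 and Bmp6 with hardly any lymphatic gene.

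The fourth group, of 13 barcodes (2 and 11), was led by Prg4, the gene of lubricin, and by fibroblast genes such as Lum and Col1a1. The 10 fibroblast markers summed to a median of 30195 CPM over its barcodes, from 10865 to 47292 CPM. Ccl21a was still found in 9 of 11 barcodes of library 2, at 4301 CPM. That level came largely from 1 barcode of 35157 UMIs with 245 Ccl21a UMIs and 371 of Dcn. The others had at most 17 Ccl21a UMIs each. The second group, of 17 barcodes (14 and 3), held 16 of the 18 Prox1/Flt4 members and was led by Gja5, Bmp6 and Edn1. Neither was given a lymphatic name. Mki67, a gene of dividing cells, had 68 UMIs in the members of library 1, of which 53 came from 1 barcode of 123568 UMIs, and 0 in those of library 2.

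The makeup of the Mmrn1/Reln members was not alike in the 2 libraries. Ccl21a was detected in 10 of 30 in library 1 and 20 of 30 in library 2. After thinning to 1500 UMIs the shares were 33.3% (17.3 to 52.8%) and 60% (40.6 to 77.3%), and the intervals overlapped. The 10 positive barcodes of library 1 together had 31418 CPM and the 20 of library 2 had 12000 CPM. In blood endothelial barcodes the thinned shares were 0.0414% and 0.104%.

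Smooth muscle marker sums, and barcode medians of fibroblast markers, were higher in library 2. In the Mmrn1/Reln members the 10 contractile smooth muscle markers summed to 1246 CPM in library 1 and 7206 CPM in library 2, with 0 of the markers at 0 in either. The barcode medians were 438 and 8042 CPM. The 10 fibroblast markers summed to 9448 and 9077 CPM, with barcode medians of 696 and 6856 CPM, and at least 3 of them were found in 13 and 29 of 30 barcodes. In blood endothelial barcodes the smooth muscle sum was 2837 and 6719 CPM and the fibroblast sum 7205 and 10326 CPM. The 8 T cell markers summed to 4 and 3 UMIs in the Mmrn1/Reln members (15.7 and 12.6 CPM), against 41.6 and 33.4 CPM in blood endothelial barcodes. Of these markers Cd3d, Cd3e, Cd3g and Trac were at 0 UMIs in the Mmrn1/Reln members of both libraries. Of the 10 genes with the largest ratio between the libraries in these members, Myh11, Acta2 and Tagln are smooth muscle genes. Acta2 was 405 and 2908 CPM. The part of smooth muscle and fibroblast RNA in the differences between libraries was not tested.

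Single deep barcodes set other values. In the Mmrn1/Reln members, Ptgs2 was 861 CPM in library 1 and 50.6 CPM in library 2, and all 219 UMIs in library 1 came from 1 barcode. Timp1 was 106 and 855 CPM, with 181 of 203 UMIs of library 2 in 1 barcode. Among all 78 members, 399 of 399 Sprr2b UMIs lay in 1 barcode of library 1. The deepest barcode held 23.0% of the UMIs of the Mmrn1/Reln members in library 1 and 22.2% in library 2. In library 1 this barcode lay in the fourth group, led by fibroblast genes. It had 723 UMIs of Dcn, 19 of Flt1, 1 of Mmrn1 and 0 of Reln. Every sum of the Mmrn1/Reln members in library 1 includes it. Cmah, by contrast, was 405 and 42.1 CPM with at most 38 of its 103 UMIs in 1 barcode and detection in 13 of 30 and 6 of 30.

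Itgb3, the gene named in the title of 1 sample, was 27.5 and 21.1 CPM in the Mmrn1/Reln members, from 7 and 5 UMIs, and 31.4 and 36.5 CPM in blood endothelial barcodes. The intervals of the members, 11.1 to 56.7 and 6.84 to 49.2 CPM, contained the blood endothelial levels. A difference in Itgb3 between these members and blood endothelial barcodes was not detectable at this depth. Over all members Itgb3 had 47 UMIs in library 1, from 12 barcodes, and 5 in library 2. Most of the 47 thus lay in the Prox1/Flt4 members.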

How the data were processed

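Cells of 2 aortic samples were profiled with the Chromium Single Cell 3' v3 kit, per the labels' protocols. The deposited values are raw UMI counts of 32285 genes in 2828620 unfiltered barcodes, and per the file headers Cell Ranger 6.0.1 made them. Besides it, bcl2fastq, Seurat and mm10 appear in the submitters' processing notes; for the annotation the labels name no release. Gene positions are from GENCODE vM21 (GRCm38), in which 99.6% of gene identifiers were found.

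UMIs were summed per class and library and given as CPM with exact Poisson intervals; shares have exact Clopper-Pearson intervals. Ratios against 0 used 3 UMIs. No doublet caller, p-value or count model was used, since each sample is 1 library. Members and gene lists were chosen with earlier results of these data known. Named genes were the rule genes, the 15 highest and 15 lowest by the smaller ratio, list members chosen by role or past 2-fold, and the 10 with the largest ratio between libraries; Itgb3, Krt18 in the Prox1/Flt4 members, Mki67 and genes leading a group were chosen after their values were seen. Groups came from Leiden clustering (scanpy 1.11.5; log counts per 10000, 1000 variable genes, 15 components, 15 neighbours, resolution 0.5). Some genes are not reported here. TMM factors came from edgeR 4.0.16. The counting of genes past 2-fold was tested on simulated Poisson counts of the class sums. Those counts have no spread between barcodes, so the test does not cover values set by single deep barcodes.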

Additional observations from a re-analysis of the deposited data

How the results depend on the processing

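No paired analysis was possible because each sample is 1 library and no label ties a library to a sample, and for the same reason no replicate could be left out. In library 2 the 34 members became 16 at 3000 UMIs, 53 at 1000 UMIs and 22 with at least 2 pan-endothelial genes, and the 30 Mmrn1/Reln members 13, 48 and 19. With at least 3 rule genes 22 and 19 members were left. Without barcodes bearing smooth muscle or fibroblast markers 11 and 1 were left, of all members and of the Mmrn1/Reln members alike, too few in library 2 for gene values. The counts of 94 higher and 60 lower genes became 253 and 203 with at least 3 rule genes, 158 and 118 at a mean of 20 CPM, and 411 and 230 with no floor. The higher count became 174 after thinning. The choices added after the data were seen gave 215 and 175 (Mmrn1/Reln members) and 144 higher genes (barcodes weighted equally). For the Mmrn1/Reln members 215 and 175 became 366 and 333 at 20 CPM and 678 and 427 with no floor. Of the named ratios that were at least 2-fold at the main setting, only Unc5b in library 2 of the Mmrn1/Reln members changed direction. Its log2 ratio was -0.20 after thinning, and the cause was not tested. Smaller ratios were not checked for a change of direction. The lymphatic identity counts of 16 and 17 of 18 stayed within 1.5 times. Over all lists, settings and directions, 78 counts rose and 43 fell by more than that while 369 did not (25, 33 and 397 for the Mmrn1/Reln members). Of the named log2 ratios 539 moved and 1813 did not (314 and 1869). Resolution 1.0 gave 5 groups in place of 4, with 77 of 78 barcodes in the best matching group, and 8 components gave 4 groups with 65 of 78, of 22, 18, 21 and 17 barcodes. Depth limits genes near 3 UMIs, which correspond to 11.8 and 12.6 CPM in the Mmrn1/Reln members.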
